A study of Mus musculus with 6 samples.

Results

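The proteasome genes of mouse bone marrow mesenchymal stem cells, which are stromal progenitors of bone, fat and cartilage cells, were followed after knockdown of RIOK3, an atypical kinase of the RIO family. Members were the protein-coding genes of the count table whose symbol begins with Psma, Psmb, Psmc, Psmd, Psme, Psmf or Psmg and a digit, without the immunoproteasome genes Psmb8, Psmb9 and Psmb10. This gave 46 of 22030 genes. Of these, 44 encode proteasome subunits, activators, an inhibitor or assembly factors, and the other two, Psmc3ip and Psme3ip1, match by symbol only. The rule used no measured value.

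The 26S proteasome degrades proteins tagged with ubiquitin. Its 20S core is a barrel of stacked alpha and beta rings with the cutting sites inside, and the 19S particle on its ends binds ubiquitin, removes it, and unfolds and threads the substrate with a ring of ATPases. Other caps (PA28 and PA200) can replace the 19S particle. In marrow stromal cells the proteasome turns over osteoblast regulators such as RUNX2, and proteasome inhibitors such as bortezomib are known to promote bone formation. Because subunits assemble in fixed proportions, their genes are often regulated together, in mammals chiefly through the transcription factor NRF1 (gene Nfe2l1).

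Messenger RNA was sequenced in 6 libraries, 3 from cells with RIOK3 knocked down (titled siRIOK3) and 3 from control cells (titled siNC, genotype WT). The design text speaks of lines made stable with a lentivirus and also of a knockout, and the titles carry the prefix si, so the agent is not settled by the labels. The labels do not give strain, age, culture medium or day of harvest, nor whether replicates were separate cultures, so a p-value here reflects the spread between libraries alone, which may be technical. The comparison bears on how RIOK3 acts in osteogenic differentiation.

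The libraries held 28327612 to 32569544 counts. Riok3 had 32.1, 31.5 and 37.2 CPM in the knockdown libraries, against 143, 193 and 135 CPM in the control libraries (CPM, counts scaled by library total and TMM factor), without overlap. Its log2 fold change (knockdown over control) was −2.23 as counted and −1.20 with each library's trend on transcript GC content removed (below). It was −0.84 with the trend on coding GC content removed, and −0.49 when control replicate 2 was left out too. Each of these values had an edgeR adjusted p under 0.05. Of 13 stromal marker genes 12 could be tested, of which 5 rose and 5 fell. Across all tested genes 21.1% were called higher and 26.8% lower, at an edgeR adjusted p under 0.05. The stromal markers' summed level was 695 to 723 CPM in the knockdown and 500.4 to 667 CPM in the control. With the transcript GC trend removed, Pdgfrb, Ly6a, Col1a1 and Col1a2 stayed called higher, and Pdgfra and Vcam1 lower. Prrx1 then turned from −1.04 to 0.48 (called higher), and Eng, Nt5e and Cd44 were not called (0.35, −0.62 and 0.09). Col1a2, Pdgfra, Prrx1 and Cd44 were well expressed, whereas Thy1, Eng and Nt5e had at most 126 counts and Lepr at most 13. The 8 macrophage markers summed to 45.97 to 51.0 CPM in the knockdown and 25.4 to 42.8 CPM in the control, nearly all of it Cd68, while Ptprc had at most 3 counts and Fcgr3 at most 1. The cycling marker Mki67 had 16.6, 15.8 and 17.97 CPM in the knockdown libraries, against 1109, 602 and 1008 CPM in the control libraries. The other cycling marker, Top2a, fell less, with 203, 206 and 218 CPM in the knockdown and 739, 571 and 653 CPM in the control libraries. With the trend on transcript GC content removed, the log2 fold change (knockdown over control) was −5.21 for Mki67 and −0.46 for Top2a (edgeR adjusted p = 0.00017 and 0.0201). With each library's trend on coding GC content removed instead (below), a setting chosen after the data were seen, the values were −4.69 and 0.17 (edgeR adjusted p = 0.000197 and 0.284). In such bulk samples, fewer cells of a type and less RNA per cell cannot be told apart, and the part of these differences in the results below was not tested. Control replicate 2 stood apart from the other controls (its log2 CPM correlated with theirs at a Spearman rho of 0.963 and 0.968, against 0.996 between the others). It was above both other controls for 36 of the 46 members and below both for 7, with a median ratio of 1.45 to their mean (range 0.574 to 2.28), so results are given with and without it.

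All 46 members passed the filter on low counts, the lowest count of any member in any library being 71. A gene was called changed at a Benjamini-Hochberg adjusted p under 0.05 in edgeR's quasi-likelihood test over 13067 genes. Under this rule 14 members (30.4%) were called, 11 lower and 3 higher in the knockdown, where 48% of all tested genes were called, 26.8% lower and 21.1% higher. The share of members called was thus below that of all genes, and the share called lower (23.9%) was near the background. The median log2 fold change (knockdown over control) of the members was −0.14, against 0.01 for all tested genes. Of the 14 called members, 6 were at least 2-fold lower, 2 of them at least 4-fold lower, and none was at least 2-fold higher, where 6.67% of all tested genes were called and at least 2-fold higher, 19.2% called and at least 2-fold lower, and 8.64% called and at least 4-fold lower. The libraries of the groups did not overlap in CPM for 26 members, 7 higher and 19 lower (56.5%, against 62.1% of all tested genes, 30.8% higher and 31.3% lower). The split depended on the scaling of libraries. With upper-quartile factors 6 members were called higher and 10 lower (51.3% of all tested genes were called, 28.9% higher and 22.5% lower) and the median was 0.03, and with library totals alone 10 and 10 (54.3% of all, 32.8% higher and 21.5% lower) with a median of 0.11. The median of all tested genes moved to 0.21 and 0.26 under these 2 scalings, and stayed above that of the members.

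**Figure D1:**
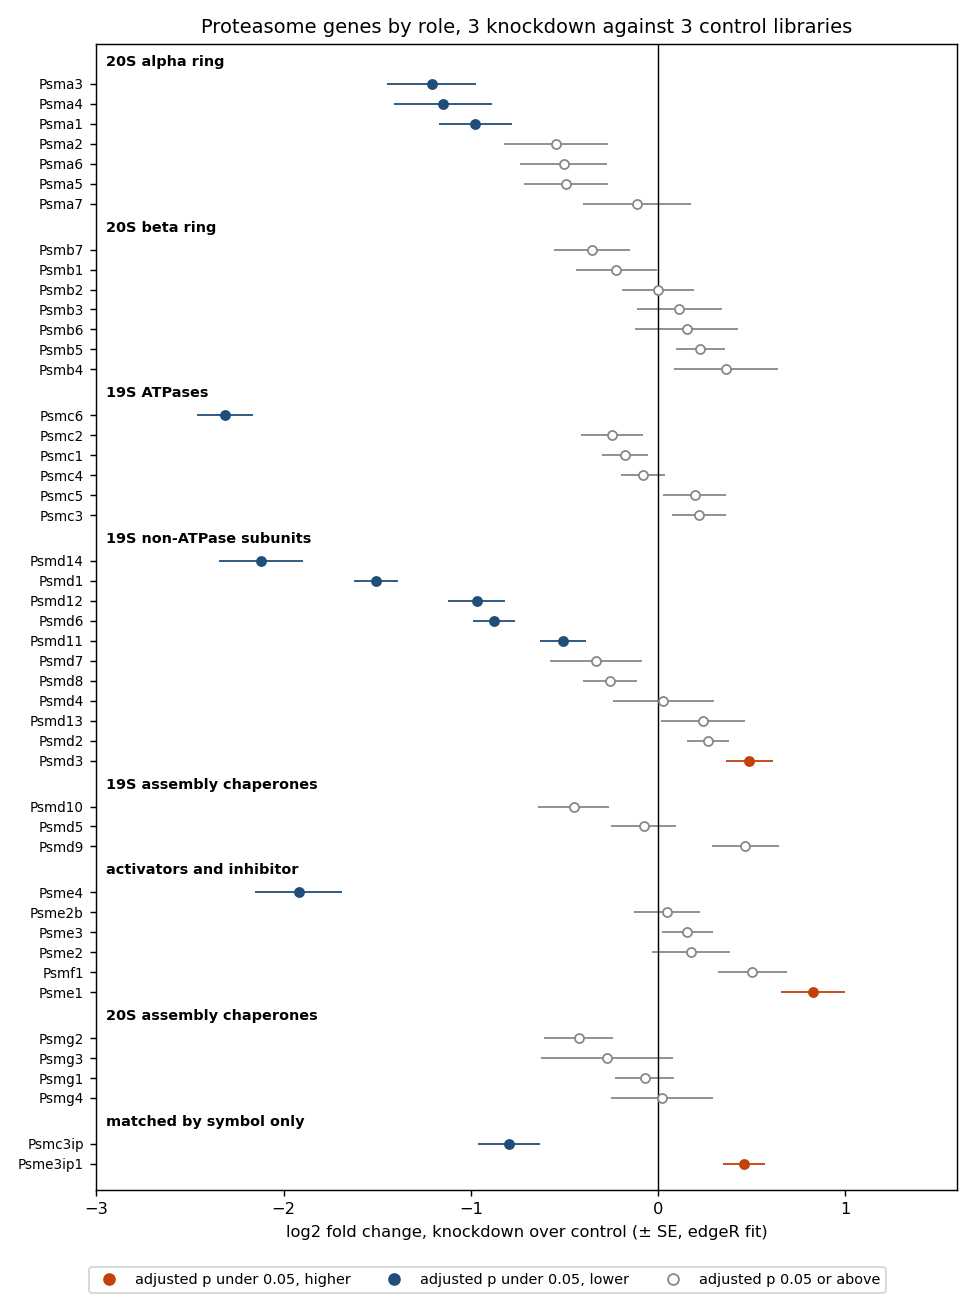
Log2 fold change (x axis, knockdown over control, with SE) of each of the 46 members, grouped by role from top to bottom. Filled points have an edgeR adjusted p under 0.05. Psmc6, Psmd14, Psme4 and Psmd1 have the lowest values, and the beta ring lies around 0.

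The alpha ring, which gates entry to the core, leaned lower as counted. Of its 7 genes 3 fell, none rose and the median log2 fold change was −0.54. Of all tested genes, 26.8% were called lower and 21.1% higher. Psma3 had 179, 187 and 188 CPM in the knockdown libraries, against 354, 599 and 329 CPM in the control libraries, and was 2.31-fold lower (log2 fold change −1.21, SE 0.238, edgeR adjusted p = 0.00555). For Psma4 the values were 230.0, 231 and 253 CPM in the knockdown libraries, against 434, 764 and 384 CPM in the control libraries, a 2.22-fold lower mean (log2 fold change −1.15, SE 0.263, edgeR adjusted p = 0.0104). Psma1 was at 36.7, 41.3 and 40.96 CPM in the knockdown libraries, against 75.9, 98.3 and 59.8 CPM in the control libraries (log2 fold change −0.98, SE 0.195, edgeR adjusted p = 0.0059). In these 3 genes every knockdown library lay below every control library, and control replicate 2 was the highest library. Psma2, Psma5 and Psma6 also had no overlap, with log2 fold changes of −0.54, −0.49 and −0.50, and did not pass (edgeR adjusted p = 0.143, 0.111 and 0.114). Across all tested genes, 31.3% were lower in the knockdown without overlap. Psma7, the alpha gene with the highest GC content, was at −0.11 with overlapping groups.

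The beta ring, which carries the cutting sites, gave no call in either direction (0 of 7, median log2 fold change 0.11, edgeR, with 0 at an unadjusted p under 0.05 and 0 in DESeq2). Across all 46 members an unadjusted p under 0.05 was found for 18, and DESeq2 called the same number of members as edgeR, 3 higher and 11 lower. Psmb5, the chymotrypsin-like subunit, had 35.3, 37.8 and 34.9 CPM in the knockdown libraries, against 29.2, 34.4 and 28.7 CPM in the control libraries (log2 fold change 0.23, SE 0.131, edgeR adjusted p = 0.194). Its groups did not overlap, by a narrow margin. Psmb7, the trypsin-like subunit, was at 83.9, 83.6 and 86.3 CPM in the knockdown libraries, against 91.1, 144 and 88.9 CPM in the control libraries (log2 fold change −0.35, SE 0.203, edgeR adjusted p = 0.192), again without overlap. Psmb4, a structural subunit, had 274, 270.4 and 247 CPM in the knockdown libraries, against 134, 299 and 182 CPM in the control libraries (log2 fold change 0.36, SE 0.277, edgeR adjusted p = 0.312), and here control replicate 2 lay above all knockdown libraries and the other controls below them. Psmb6, the caspase-like subunit, Psmb1, Psmb2 and Psmb3 had log2 fold changes of 0.15, −0.22, 0.00 and 0.11, with overlapping groups. Without control replicate 2, where 71.6% of all tested genes were called (35.1% higher, 36.5% lower), 4 beta genes were called higher and none lower (Psmb3, Psmb4, Psmb5 and Psmb6, log2 fold changes 0.42, 0.74, 0.31 and 0.55), while 5 alpha genes were called lower and 1, Psma7, higher (0.33).

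The summed level of the 7 alpha genes was 907, 931 and 949.9 CPM in the knockdown libraries, against 1293, 2311 and 1246 CPM in the control libraries. For the 7 beta genes the sum was 788, 784 and 754 CPM in the knockdown libraries, against 559.6, 1036 and 632 CPM in the control libraries. Control replicate 2 thus held the highest sum of both rings. Relative to control replicates 1 and 3, the alpha sum was lower and the beta sum higher in each knockdown library. Median transcript GC content was 45.0% for the alpha and 52.2% for the beta genes. With the transcript GC trend removed, the median log2 fold changes were −0.05 (alpha) and −0.21 (beta). Then 1 alpha gene was called higher and no beta gene was called (31.6% of all tested genes were called). With the coding GC trend removed, the medians were 0.20 and −0.02, without a call in either ring.

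Among the 6 ATPases that form the unfolding ring, a single gene changed with all 6 libraries. Psmc6 had 44.2, 40.3 and 45.5 CPM in the knockdown libraries, against 225, 238 and 183 CPM in the control libraries, averaging 43.3 ± 2.70 CPM in the knockdown and 215 ± 28.4 CPM in the control (SD, n = 3 each). It was 4.97-fold lower (log2 fold change −2.31, SE 0.147, edgeR adjusted p = 4.89e-05), the lowest fold change of all 46 members, with a wide gap between the groups. Its 5 partners had log2 fold changes between −0.25 and 0.22, and none passed. Psmc3 was at 413, 402 and 391 CPM in the knockdown libraries, against 311, 408 and 317 CPM in the control libraries (log2 fold change 0.22, SE 0.144, edgeR adjusted p = 0.244). Psmc2 was at 294, 300.1 and 302 CPM in the knockdown libraries, against 302, 440.2 and 321 CPM in the control libraries (log2 fold change −0.25, SE 0.166, edgeR adjusted p = 0.258). For Psmc1 the values were 342, 357 and 370.2 CPM in the knockdown libraries, against 438, 397 and 372 CPM in the control libraries (log2 fold change −0.18, SE 0.121, edgeR adjusted p = 0.267). Groups overlapped for Psmc2 and Psmc3 and were just separate for Psmc1. Psmc4 and Psmc5 were at −0.08 and 0.20. Without control replicate 2, 2 ATPase genes were called lower, Psmc6 and Psmc1 (−2.24 and −0.18), and 2 higher, Psmc3 and Psmc5 (0.36 and 0.39), and with library totals alone 1 was called lower and 2 higher. Of all tested genes, 71.6% were called without control replicate 2 and 54.3% with library totals alone.

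Levels of different genes can be compared only per length, for which the authors' FPKM values (fragments per kilobase of gene model, scaled by library total) were used. Psmc6 was the lowest ATPase gene in each knockdown library, at 13.4, 12.3 and 13.96 FPKM, where the highest, Psmc5, reached 217 to 227 FPKM. In the control libraries Psmc4 was the lowest, at 34.2, 35.96 and 32.2 FPKM. The ratio of the highest to the lowest ATPase gene was 15.6 to 18.4 in the knockdown libraries and 5.41 to 5.803 in the control libraries. The ratio of Psmc6 to its ring partner Psmc3 within a library, which does not depend on the scaling of libraries, was 0.0797, 0.0747 and 0.0866 in the knockdown libraries, against 0.539, 0.434 and 0.431 in the control libraries. These ratios averaged 0.0803 ± 0.00597 in the knockdown and 0.468 ± 0.0612 in the control (SD, n = 3 each), and the groups did not overlap. An exact two-sided permutation test gave p = 0.1, the smallest that 3 against 3 libraries allow. Psmc6 had the lowest fold change of all members and Psmc3 the highest of the 6 ATPase genes. The ratio of this pair thus restates their values, and its test adds no support. The transcripts of this pair differed in GC content, 36.97% for Psmc6 and 55.1% for Psmc3. With each library's trend on transcript GC content removed, Psmc6 was at 0.36 and Psmc3 at −0.22 in log2 fold change (neither called), so that the direction between them was turned.

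The 11 other subunits of the 19S particle held 6 of the 14 calls, 5 lower and 1 higher, with a median log2 fold change of −0.33. Of all tested genes, 26.8% were called lower and 21.1% higher. Psmd14 encodes the metalloprotease that cuts ubiquitin chains off the substrate. It had 29.96, 36.3 and 36.9 CPM in the knockdown libraries, against 135, 198 and 116 CPM in the control libraries, and was 4.35-fold lower (log2 fold change −2.12, SE 0.224, edgeR adjusted p = 0.000406). Psmd1, a scaffold of the base, was at 109, 109 and 117 CPM in the knockdown libraries, against 339, 321 and 295 CPM in the control libraries, 2.84-fold lower (log2 fold change −1.51, SE 0.119, edgeR adjusted p = 0.000114). Both showed a clear gap between the groups. Psmd6, a lid subunit, had 77.5, 79.8 and 76.6 CPM in the knockdown libraries, against 148, 142 and 139 CPM in the control libraries (log2 fold change −0.88, SE 0.110, edgeR adjusted p = 0.000776). The lid genes Psmd12 and Psmd11 also fell, at −0.97 and −0.51 (edgeR adjusted p = 0.00217 and 0.0125). Psmd3, another lid gene, rose to 303, 299 and 269.7 CPM in the knockdown libraries, against 198, 195 and 229 CPM in the control libraries (log2 fold change 0.49, SE 0.126, edgeR adjusted p = 0.0163). All of these 6 genes had groups that did not overlap. Psmd4, a ubiquitin receptor, was at 1188, 1169.9 and 1131 CPM in the knockdown libraries, against 813, 1674 and 933 CPM in the control libraries (log2 fold change 0.03, SE 0.268, edgeR adjusted p = 0.938), with the control libraries on both sides of the knockdown libraries. Psmd2, the other large scaffold of the base, was higher without overlap but did not pass (0.27, edgeR adjusted p = 0.0828). Psmd7, Psmd8 and Psmd13, all of the lid, were at −0.33, −0.26 and 0.24. Of the 11, 4 were called higher and 5 lower without control replicate 2, where 71.6% of all tested genes were called (35.1% higher, 36.5% lower).

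The product of Psmd14 works as a pair with that of Psmd7. The FPKM ratio of Psmd14 to Psmd7 was 0.0301, 0.0368 and 0.0373 in the knockdown libraries, against 0.142, 0.112 and 0.115 in the control libraries. It averaged 0.0347 ± 0.00402 in the knockdown and 0.123 ± 0.0166 in the control (SD, n = 3 each), without overlap (exact two-sided permutation p = 0.1). Control replicate 2, the highest library for both genes in CPM, had the lowest control value of this ratio. GC content was 43.2% for Psmd14 and 49.7% for Psmd7, and with the trend on transcript GC content removed their log2 fold changes were −0.95 and −0.32.

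**Figure D2:**
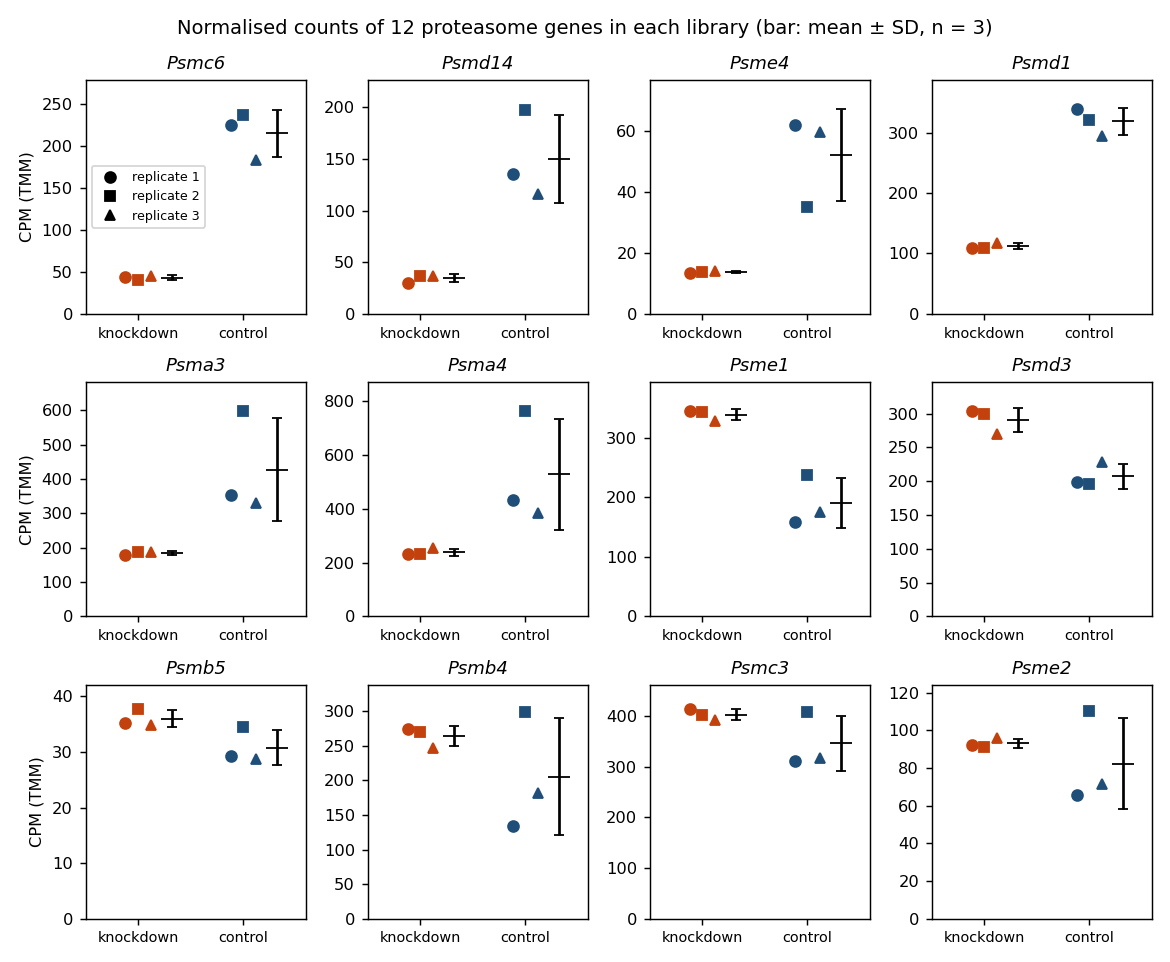
TMM-scaled CPM (y axis, from 0) of 12 members in each library, knockdown left and control right, with 1 symbol per replicate number and the mean and SD beside the points. Psmc6, Psmd14, Psme4 and Psmd1 are separated by wide gaps, and control replicate 2 (square) is the highest control for Psma3, Psma4, Psmb4 and Psme2 and the lowest for Psme4.

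None of the chaperones that build the 19S base was called (0 of 3 in edgeR and 0 in DESeq2), and 2, Psmd9 and Psmd10, had an unadjusted p under 0.05. Psmd9 had 48.9, 49.7 and 45.7 CPM in the knockdown libraries, against 29.5, 44.1 and 30.9 CPM in the control libraries (log2 fold change 0.47, SE 0.180, edgeR adjusted p = 0.0677), and the groups were just separate. Psmd10, the oncoprotein gankyrin, was at 34.1, 32.6 and 34.9 CPM in the knockdown libraries, against 40.1, 59.9 and 38.8 CPM in the control libraries (log2 fold change −0.45, SE 0.191, edgeR adjusted p = 0.0896), lower without overlap. Psmd5 was at 70.9, 65.3 and 60.6 CPM in the knockdown libraries, against 70.1, 54.97 and 82.5 CPM in the control libraries (log2 fold change −0.08, SE 0.173, edgeR adjusted p = 0.737), with full overlap. Without control replicate 2 all 3 were called, Psmd9 higher (0.67) and Psmd10 and Psmd5 lower (−0.22 and −0.22), and with the trend on transcript GC content removed Psmd10 and Psmd5 were called higher. Of all tested genes, 71.6% were called in the first of these settings and 31.6% in the second.

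Of the chaperones that build the 20S core (0 of 4 called in edgeR, 0 at an unadjusted p under 0.05 and 0 in DESeq2), Psmg2 was at 22.8, 24.2 and 23.5 CPM in the knockdown libraries, against 25.7, 39.9 and 28.97 CPM in the control libraries (log2 fold change −0.42, SE 0.184, edgeR adjusted p = 0.0954). Psmg3 was at 4.44, 3.79 and 3.48 CPM in the knockdown libraries, against 3.02, 7.55 and 3.60 CPM in the control libraries (log2 fold change −0.27, SE 0.353, edgeR adjusted p = 0.551). Control replicate 2 was the highest library for both. Psmg1 had 9.17, 10.7 and 10.3 CPM in the knockdown libraries, against 11.1, 11.7 and 8.93 CPM in the control libraries (log2 fold change −0.07, SE 0.157, edgeR adjusted p = 0.735). Psmg4 had 39.7, 38.01 and 40.4 CPM in the knockdown libraries, against 26.8, 57.1 and 32.6 CPM in the control libraries (log2 fold change 0.02, SE 0.274, edgeR adjusted p = 0.955). Groups overlapped for Psmg1, Psmg3 and Psmg4. Psmg4 was, without control replicate 2, called higher (0.41) and Psmg2 lower (−0.22).

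The activators moved in opposite directions. Psme4 encodes PA200, a single-chain nuclear cap known for its role in acetylated histone breakdown. It had 13.5, 13.9 and 13.9 CPM in the knockdown libraries, against 61.9, 34.9 and 59.6 CPM in the control libraries, and was 3.78-fold lower (log2 fold change −1.92, SE 0.232, edgeR adjusted p = 0.000706). Psme1, the alpha subunit of the interferon-inducible cap PA28, had 345, 343 and 329 CPM in the knockdown libraries, against 158, 238 and 176 CPM in the control libraries, and was 1.78-fold higher (log2 fold change 0.83, SE 0.172, edgeR adjusted p = 0.00683). The groups did not overlap for either gene. Psmf1, the gene of the inhibitor PI31, was at 30.1, 30.01 and 28.05 CPM in the knockdown libraries, against 16.8, 26.2 and 19.3 CPM in the control libraries (log2 fold change 0.50, SE 0.185, edgeR adjusted p = 0.0579), higher without overlap and not past the threshold. Psme2, which encodes the beta subunit that forms a ring with the product of Psme1, was at 0.18 and Psme3, the nuclear PA28 gamma, at 0.16, neither past the threshold. Psme2b, a close copy of Psme2 with 2.55 to 3.05 CPM over all libraries, was at 0.05, and its counts and those of Psme2 are uncertain where reads could fit both. Psme2 and Psmf1 were also called higher without control replicate 2 (0.44 and 0.71).

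The FPKM ratio of Psme1 to Psme2 within a library was 2.98, 3.004 and 2.73 in the knockdown libraries, against 1.93, 1.72 and 1.97 in the control libraries. The mean was 2.91 ± 0.150 in the knockdown and 1.87 ± 0.132 in the control (SD, n = 3 each), without overlap (exact two-sided permutation p = 0.1). GC content was 54.9% for Psme1 and 52.8% for Psme2, and with the trend on transcript GC content removed their log2 fold changes were 0.41 and −0.11.

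The members matched by symbol only were both called. Psmc3ip, whose product acts in meiotic recombination, had 70.3, 71.7 and 70.2 CPM in the knockdown libraries, against 111, 153 and 105 CPM in the control libraries (log2 fold change −0.80, SE 0.168, edgeR adjusted p = 0.00739). Psme3ip1, whose product binds PA28 gamma, had 339, 331 and 357 CPM in the knockdown libraries, against 251, 238 and 257 CPM in the control libraries (log2 fold change 0.46, SE 0.112, edgeR adjusted p = 0.0127). Neither pair of groups overlapped. In GENCODE M21 the exons of Psmc3ip share 385 bases with those of Mlx on the opposite strand, and no source used here gives the strand setting of the counting, so its level is uncertain. The same holds for Psmb7 (405 bases shared with Nek6), Psmd13 (342 with Sirt3), Psmc3 (215 with Slc39a13), Psmd9 (1849 with Gm26745) and, on the same strand, Psmg3 (280 with Gm26938) and Psmd1 (301 with Gm21972, which had at most 33 counts).

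Without control replicate 2, 34 members (73.9%) were called, 17 higher and 17 lower, where 71.6% of all tested genes were called (35.1% higher, 36.5% lower). All 14 earlier calls remained in their direction. The 20 further calls were 14 higher and 6 lower, and the median of the members was 0.01. Among the members with the lowest and highest fold changes, Psmc6 was then at −2.24, Psmd14 at −1.87, Psme4 at −2.14, Psmd1 at −1.50 and Psme1 at 1.02. Leaving out any other library gave 1 to 3 members higher and 10 to 13 lower. Of all tested genes (13321 to 13417), 1647 to 2182 were then called higher and 2693 to 3100 lower.

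Fold changes of the members followed the GC content of their transcripts (1 transcript per gene, GENCODE M21), as those of all genes did. Across the 46 members Pearson's r was 0.75 and Spearman's rho 0.75, and across 13043 tested genes 0.68 and 0.70. The points share the same 6 libraries, and the values are a description. Of the 16 members with the lowest GC content (37.0 to 47.9%) 10 were called lower and none higher, with a median log2 fold change of −0.92. In the middle 15 (48.7 to 52.2%) 1 was called lower and none higher, and in the highest 15 (52.4 to 58.3%) 3 were called higher and none lower. The shares of all tested genes called in these GC ranges were not counted, so the split cannot be read as particular to the members. The members' median GC content was 49.7%, against 50.4% for all tested genes. Log2 CPM rose with GC content, relative to the mean of the 6 libraries, by 0.564 to 0.662 per 10 points of GC in the knockdown libraries, and fell with it in the control libraries (slopes −0.794, −0.450 and −0.640).

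**Figure D3:**
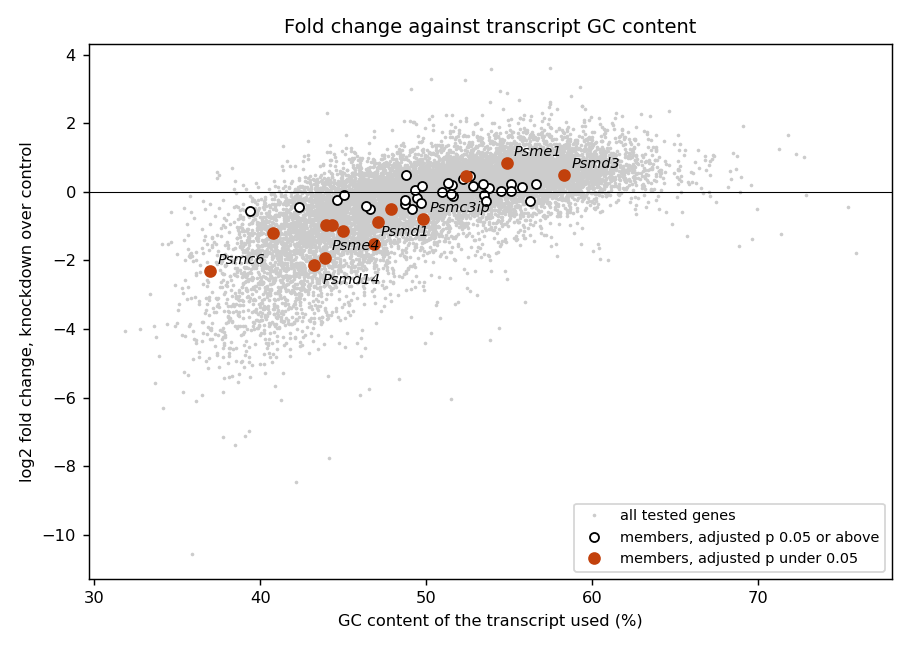
Log2 fold change (y axis, knockdown over control) against GC content of the transcript used (x axis, %), for all tested genes with a GC value (grey) and the 46 members (open points not called, filled points called). All members called lower but Psmc3ip lie in the left part of the cloud of members, and Psme1 and Psmd3 at the right.

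The coding sequence shows this contrast in the letters. For 2 of the members that fell most and 2 that rose, the 120 bases whose GC share is nearest to that of the whole coding part are given from GENCODE M21 transcripts on GRCm38, an earlier build than the GRCm39 named in the submitters' processing notes, 5′ to 3′ with every G and C in capitals. All 4 lie on the plus strand and span joined exons, Psmc6 at chr14:45329872-45330888 (exons 1 to 2), Psmd14 at chr2:61760657-61761043 (exons 4 to 5), Psme1 at chr14:55578575-55579818 (exons 1 to 3) and Psmd3 at chr11:98682871-98685534 (exons 1 to 2).
Psmc6: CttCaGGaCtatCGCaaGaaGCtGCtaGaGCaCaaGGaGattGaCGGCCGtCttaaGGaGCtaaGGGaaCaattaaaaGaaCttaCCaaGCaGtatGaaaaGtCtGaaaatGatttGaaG
Psmd14: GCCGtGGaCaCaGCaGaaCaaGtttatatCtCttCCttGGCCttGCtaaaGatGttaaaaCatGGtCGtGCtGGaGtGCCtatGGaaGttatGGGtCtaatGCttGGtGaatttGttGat
Psme1: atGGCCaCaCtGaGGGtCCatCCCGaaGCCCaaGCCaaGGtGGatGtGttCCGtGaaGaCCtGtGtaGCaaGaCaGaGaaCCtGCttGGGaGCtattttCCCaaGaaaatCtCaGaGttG
Psmd3: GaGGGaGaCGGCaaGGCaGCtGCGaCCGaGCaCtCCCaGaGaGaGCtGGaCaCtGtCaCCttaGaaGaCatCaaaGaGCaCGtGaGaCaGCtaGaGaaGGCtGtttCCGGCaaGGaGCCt
The coding parts held 41.8% GC in Psmc6, 43.1% in Psmd14, 51.7% in Psme1 and 57.4% in Psmd3. At the third codon position, where most changes leave the protein the same, they held 36.0%, 41.0%, 67.5% and 72.6% in the same order of genes.

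Each library's trend on transcript GC content was then removed as an offset in the edgeR fit. This left 10 members called (21.7%), 3 higher and 7 lower, where 31.6% of all tested genes were called (16.3% higher, 15.2% lower), and 5 of the 14 earlier calls kept their direction. They were Psmd1 (−1.05, edgeR adjusted p = 0.00185), Psmd14 (−0.95, edgeR adjusted p = 0.0457), Psme4 (−0.84, edgeR adjusted p = 0.00876), Psmc3ip (−0.79, edgeR adjusted p = 0.0268) and Psmd6 (−0.45, edgeR adjusted p = 0.0282). Psmc6, whose transcript had the lowest GC content of the members (37.0%), was at 0.36 and not called (edgeR adjusted p = 0.225). Psma3 was at 0.54, Psma1 at 0.02 and Psma4 at −0.39, none called. Psme1 was at 0.41 and Psmd3 at −0.12, neither called. Newly called were Psma2, Psmd5 and Psmd10 as higher (1.52, 0.72 and 0.94) and Psmc4 and Psmd8 as lower (−0.41 and −0.60). With the offset, the members' fold changes had a Pearson correlation of −0.37 with GC content. When control replicate 2 was left out too, an alternative chosen after the data were seen, 24 members were called higher and 9 lower (61.5% of all tested genes were called, 33.7% higher and 27.9% lower). With GC content and transcript length removed together from all 6 libraries, 5 members were called higher and 7 lower (39.6% of all tested genes were called, 21.5% higher and 18% lower). With the GC trend alone removed and control replicate 2 left out, 6 of the 14 earlier calls turned to the opposite direction, and 6 of the 7 alpha genes were called higher.

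GC content of the coding part alone was used as well, an alternative chosen after the data were seen. It left 6 members called (13.0%), 4 higher and 2 lower, where 34.6% of all tested genes were called (17.9% higher, 16.7% lower). Psme1 (0.87, edgeR adjusted p = 0.0248), Psme3ip1 (0.61) and Psmc3ip (−0.84) kept their calls. Psmc6, Psmd14 and Psmd1 were at −0.25, −0.42 and −0.26, and Psme4 and Psmd6 at 0.01 and 0.00, none called. Newly called were Psme3 and Psmd5 as higher (1.44 and 0.47) and 1 non-ATPase subunit gene of the 19S particle as lower. The coding and whole-transcript GC contents of Psme3 were 45.0% and 49.8%. With control replicate 2 left out as well, 32 members were called higher and 3 lower (68.3% of all tested genes were called, 39.1% higher and 29.2% lower). Psmc3ip was the single member whose call stood, in the same direction, with either trend removed and with or without control replicate 2. Each other called member lost its call or turned in at least 1 of these settings. Whether the GC trend arose in the cells or in the making of the libraries was not tested.

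**Figure D4:**
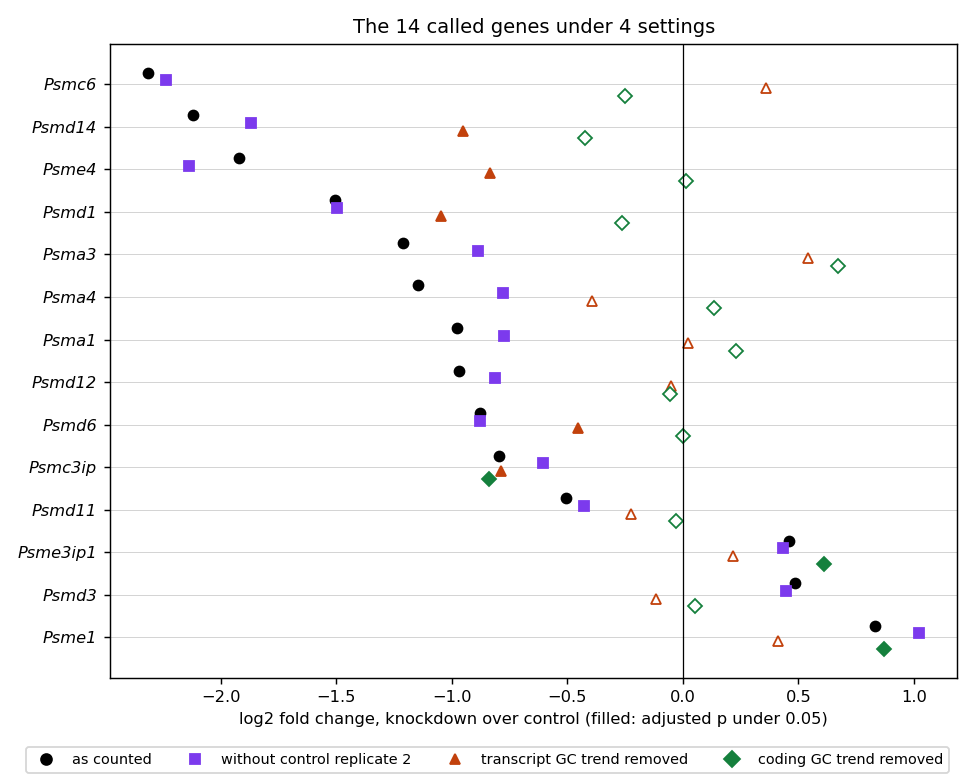
Log2 fold change (x axis, knockdown over control) of the 14 called members as counted, without control replicate 2, with the transcript GC trend removed and with the coding GC trend removed, filled where the edgeR adjusted p was under 0.05. Without the control library all 14 kept their side of 0 and their call, whereas removing either GC trend moved all members that fell but Psmc3ip towards or past 0, with Psma1 and Psma3 on the other side of it under both.

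Other genes of the pathway, 37 chosen by textbook function, of which 36 were in the table and 35 tested, were called higher in 8 cases and lower in 9 (median log2 fold change −0.02). Both shares were near those of all tested genes, 21.1% called higher and 26.8% lower. The immunoproteasome subunits Psmb8, Psmb9 and Psmb10, which replace Psmb5, Psmb6 and Psmb7 under interferon, all rose. Psmb8 had 24.8, 21.8 and 22.1 CPM in the knockdown libraries, against 9.53, 17.04 and 11.6 CPM in the control libraries (log2 fold change 0.85, SE 0.224, edgeR adjusted p = 0.0181). Psmb9 had 8.86, 9.13 and 9.31 CPM in the knockdown libraries, against 3.36, 6.51 and 4.04 CPM in the control libraries (log2 fold change 0.97, SE 0.251, edgeR adjusted p = 0.0165). Psmb10 had 18.6, 19.1 and 17.00 CPM in the knockdown libraries, against 8.19, 15.4 and 9.43 CPM in the control libraries (log2 fold change 0.73, SE 0.243, edgeR adjusted p = 0.0427). None of the 3 genes overlapped between groups. With the transcript GC trend removed they were at 0.37, 0.53 and 0.21, and none passed. With GC content and length removed, Psmb8 (0.46, edgeR adjusted p = 0.0393) and Psmb9 (0.68, edgeR adjusted p = 0.0136) passed and Psmb10 did not (0.37). With the GC trend removed and control replicate 2 left out, all 3 were called higher (0.64, 0.85 and 0.52). With the coding GC trend removed none passed (edgeR adjusted p = 0.214, 0.171 and 0.562), but all 3 did when control replicate 2 was left out too. As counted, leaving out any library but control replicate 2 ended the calls, except for Psmb8 and Psmb9 without control replicate 1 (edgeR adjusted p = 0.0469 and 0.0433).

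Against the constitutive subunit that each replaces, the FPKM ratio of Psmb8 to Psmb5 was 0.187, 0.153 and 0.168 in the knockdown libraries, against 0.0868, 0.132 and 0.107 in the control libraries. The ratio of Psmb9 to Psmb6 was 0.0316, 0.0316 and 0.0352 in the knockdown libraries, against 0.0192, 0.0175 and 0.0197 in the control libraries. For Psmb10 to Psmb7 it was 0.446, 0.458 and 0.395 in the knockdown libraries, against 0.181, 0.215 and 0.213 in the control libraries. All 3 ratios were higher in the knockdown without overlap (exact two-sided permutation p = 0.1 each), and all stayed below 1. The 6 ratios tested form 1 family, and each has the smallest p the design allows, so the Benjamini-Hochberg adjusted value is also 0.1. In all 6, also those of Psmc6, Psmd14 and Psme1, the first gene had already been called in these libraries. The ratios therefore describe those calls, and their tests add no support to them. GC content was similar within 2 of these pairs, at 55.8% for Psmb8 and 56.6% for Psmb5, and at 55.3% for Psmb9 and 55.8% for Psmb6, while Psmb10 (56.5%) was above Psmb7 (48.7%).

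**Figure D5:**
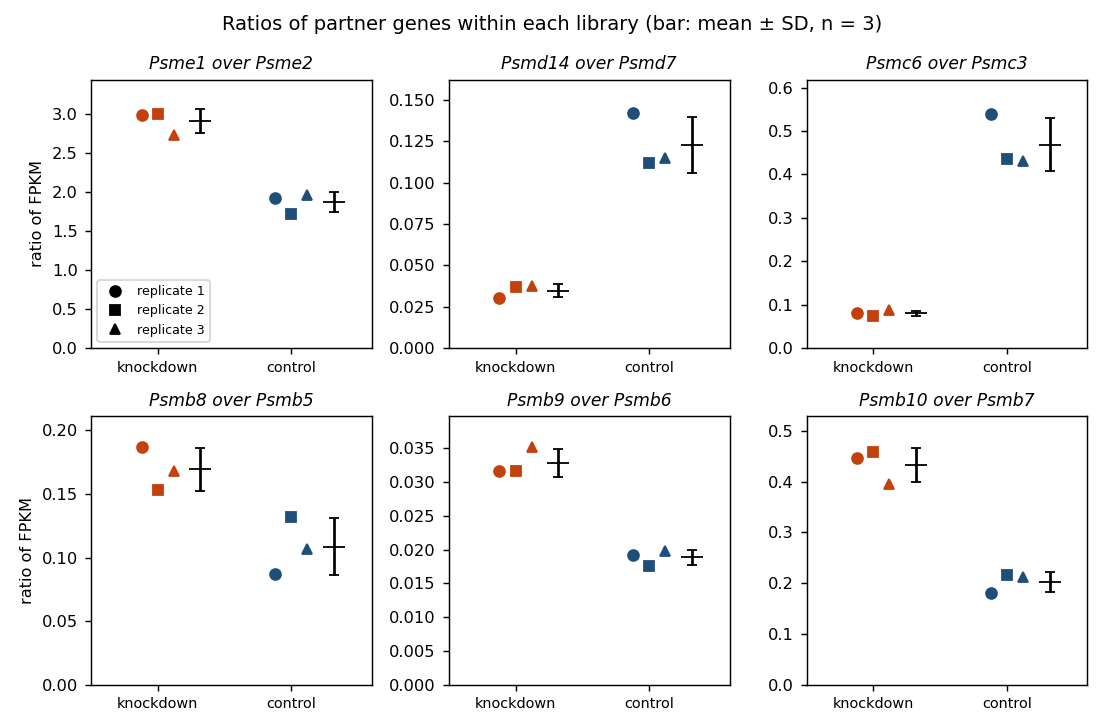
Ratio of the authors' FPKM values of 6 gene pairs within each library (y axis, from 0), knockdown left and control right, with the mean and SD. No pair overlaps between groups. Psmc6 over Psmc3 and Psmd14 over Psmd7 are lower in the knockdown, and the other 4 ratios are higher.

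Of the 11 proteasome genes with other symbols, 5 fell and none rose, where 26.8% of all tested genes were called lower and 21.1% higher. Uchl5, a deubiquitinase of the 19S particle, had 24.4, 21.96 and 26.3 CPM in the knockdown libraries, against 103, 148 and 94.3 CPM in the control libraries (log2 fold change −2.25, SE 0.204, edgeR adjusted p = 0.000218). Ecpas, the proteasome adaptor ECM29, had 37.6, 35.8 and 38.4 CPM in the knockdown libraries, against 159, 211 and 143 CPM in the control libraries (log2 fold change −2.20, SE 0.175, edgeR adjusted p = 0.000125). Neither gene overlapped between groups. Zfand5, a proteasome-binding zinc finger gene, Usp14, a deubiquitinase that binds the 19S particle reversibly, and Sem1, the smallest lid subunit, were at −1.32, −1.15 and −0.72. With the transcript GC trend removed, Ecpas stayed called (−1.24), Usp14, Zfand5 and Sem1 were called in the opposite direction (1.06, 0.69 and 1.84), and Uchl5 was at −0.44 (edgeR adjusted p = 0.277).

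Nfe2l1, the gene of NRF1, the factor that raises proteasome genes when proteasome activity falls, had 969.5, 1026 and 1021 CPM in the knockdown libraries, against 818, 557 and 803 CPM in the control libraries (log2 fold change 0.47, SE 0.172, edgeR adjusted p = 0.0577). Its groups did not overlap, control replicate 2 being the lowest library. The related gene Nfe2l2 (NRF2) had 36.02, 36.98 and 38.6 CPM in the knockdown libraries, against 121, 85.2 and 109 CPM in the control libraries (log2 fold change −1.50, SE 0.159, edgeR adjusted p = 0.000411). Ngly1, which removes sugars from NRF1 during its activation, was at 1.26 to 1.55 CPM in the knockdown and 2.77 to 4.20 CPM in the control (log2 fold change −1.35, SE 0.228, edgeR adjusted p = 0.00283). Both fell without overlap. Ddi2, the protease that cuts NRF1, was at 0.01. With the transcript GC trend removed, Nfe2l2 stayed called (−1.01) and Ngly1 did not (0.06). Nfe2l1 was then at 0.02 (edgeR adjusted p = 0.953). Its call depended on the setting. Nfe2l1 was called higher in DESeq2 (adjusted p = 0.0411), with upper-quartile factors (0.68, edgeR adjusted p = 0.0073) and without control replicate 2 (0.31, edgeR adjusted p = 0.000189), and lower with the GC trend removed and control replicate 2 left out (−0.14).

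Among 11 ubiquitin and shuttle genes 4 rose and 1 fell, where 21.1% of all tested genes were called higher and 26.8% lower. Uba1 and Uba6 encode the E1 enzymes that activate ubiquitin. Uba1 had 314, 317 and 314 CPM in the knockdown libraries, against 202, 206 and 218 CPM in the control libraries (log2 fold change 0.59, SE 0.109, edgeR adjusted p = 0.00403). Uba6 had 1.18, 1.26 and 1.48 CPM in the knockdown libraries, against 15.01, 6.61 and 12.5 CPM in the control libraries (log2 fold change −3.12, SE 0.334, edgeR adjusted p = 0.000428). They moved apart without overlap. The transcript GC content of Uba1 was 52.03% and that of Uba6 37.4%. With the transcript GC trend removed, Uba1 stayed called (0.38, edgeR adjusted p = 0.0343) and Uba6 did not (−0.46, edgeR adjusted p = 0.151). With the coding GC trend removed, Uba6 was called lower (−0.75, edgeR adjusted p = 0.0349).

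NRF1 and NRF2 bind antioxidant response elements, with the core TGACNNNGC. This motif was sought on both strands of RefSeq promoters (GRCm38.p6, 250 bases before to 50 after each start), which matched 39 of the 46 members. It was found in 6 members (15.4%), against 14% of all genes with a promoter, so it was about as frequent in the members as elsewhere. Psmc6, Psmd12 and Psme4 were called lower, and Psmb5, Psmb6 and Psmd9 were not called. The sites of the 6 genes are shown on the gene's strand with the core in capitals, reversed in Psmc6, Psmd12 and Psme4, because they set called beside uncalled members. They lie at chr14:45329585-45329617 for Psmc6, chr11:107479278-107479301 for Psmd12, chr11:30771756-30771788 for Psme4, chr11:70525336-70525368 for Psmb6 and chr5:123228147-123228179 for Psmd9, all on the plus strand, and at chr14:54618022-54618054 on the minus strand for Psmb5.
Psmc6: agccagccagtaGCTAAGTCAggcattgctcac
Psmd12: tctGCTGTGTCAcatttgcccccc
Psme4: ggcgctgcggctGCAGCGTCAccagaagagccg
Psmb5: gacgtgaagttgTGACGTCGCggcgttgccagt
Psmb6: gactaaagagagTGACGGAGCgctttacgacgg
Psmd9: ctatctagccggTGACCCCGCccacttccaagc
The CCAAT box, on either strand and with no overlap with the first motif, was found in 14 of the 39 members (35.9%) and in 41.1% of all genes. A match of letters is a description and shows no binding.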

How the data were processed

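The labels' protocols state 2 μg of total RNA per library, a stranded mRNA kit, PCR products of 200 to 500 bp and paired-end reads of 150 bases. The submitters' processing notes list HISAT2, MultiQC and the build GRCm39, without version or role. No source used here names the counter, its strandedness or the gene annotation. The authors deposited raw counts per gene and FPKM values rounded to 2 decimals. All columns were matched to libraries by name.

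The test on counts was edgeR's (version 4.0.16, R 4.3.3, with filterByExpr, TMM, glmQLFit with robust estimation, glmQLFTest, two-sided, no covariates, Benjamini-Hochberg over the 13067 genes kept). CPM used TMM scaling, and the SE is the log2 fold change divided by the square root of F. Alternatives used DESeq2 1.42.0, other scalings and filters, each library left out, a replicate block, limma-trend (limma 3.58.1) on log2(FPKM + 1) or log2(FPKM + 0.1), and loess offsets (span 0.3, degree 1) on GC content or GC content and length of the transcript with the longest coding part (GENCODE M21, 13043 tested genes matched). Offsets on coding GC content covered 11840 genes and, like offsets with control replicate 2 left out, were chosen after the data were seen. FPKM ratios were compared by exact permutation tests (scipy 1.17.1). The fits and the offset were tested on simulated data.

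Members and gene lists were chosen with earlier results of these data known. Values in every library are given per role for the 3 members with the smallest p and the one with the highest mean CPM, for the members matched by symbol only, for the pathway genes with the smallest p, and for Psmb8, Psmb9, Psmb10, Nfe2l1 and Riok3. Psmd3 was shown after its values were seen. Zfand5 and Usp14, named by that rule, are given by their fold changes alone, and Ngly1 by its range. Paaf1 was not analysed here, and Nfe2l3 did not pass the filter.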

Additional observations from a re-analysis of the deposited data

How the results depend on the processing

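RLE factors, DESeq2, no filter and a filter of 5 CPM in 3 libraries left the counts of called members at 3 higher and 11 lower. The number called higher was 6 with upper-quartile factors, 10 with library totals, 10 with log2(FPKM + 1), 10 with log2(FPKM + 0.1), 8 with log2(FPKM + 1) unfiltered, 1 with the replicate block, 5 with GC content and length removed, and 1 to 17 with a library left out (17 without control replicate 2). Of all tested genes, 3966 of 9804 rose with log2(FPKM + 1), 3902 of 9804 with log2(FPKM + 0.1) and 3929 of 21879 unfiltered. With the replicate block 2390 of 13067 rose, with GC content and length removed 2810 of 13043, and with a library left out 1647 to 4701. The number called lower was 7 with the GC trend removed, 7 with GC content and length removed, 4 with the GC trend removed and a replicate block, 2 with the coding GC trend removed, and 10 to 17 with a library left out. Of 13043 tested genes, 1988 fell with the GC trend removed, 2354 with GC content and length removed, and 1539 with the block as well. With the coding GC trend removed 1974 of 11840 fell, and with a library left out 2693 to 4891. With control replicate 2 also left out, 24 rose with the GC trend removed, 19 with GC content and length removed, and 32 rose and 3 fell with the coding GC trend removed, where the members' median was 0.37. Of all tested genes, 4501 of 13372 rose with the GC trend removed, 4674 of 13372 with GC content and length removed, and 4706 of 12036 with the coding GC trend removed. Of the other pathway genes, 8 higher and 9 lower as counted, 7 to 17 were lower and 3 to 12 higher with a library left out. In them 3 fell with the GC trend removed, 5 rose and 2 fell with a replicate block as well, 5 fell with log2(FPKM + 1) and 5 with log2(FPKM + 0.1), and 5 rose and 4 fell with the coding GC trend removed. Of all tested genes, 1976 of 9804 fell with log2(FPKM + 1) and 1974 of 9804 with log2(FPKM + 0.1). With the GC trend removed and the block 1562 of 13043 rose, and with the coding GC trend removed 2118 of 11840. With control replicate 2 left out, 14 of them rose and 15 fell with the GC trend removed, 13 rose and 16 fell with GC content and length removed, and 15 rose with the coding GC trend removed.

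Deviations of same-numbered libraries from their group means had correlations of −0.08, 0.04 and 0.05. Control replicate 2 dominated the control deviations, so these values cannot show whether replicate numbers pair the samples. The labels do not say so either. The replicate block left 1 member higher and 11 lower, Psme3ip1 and Psmd3 missing the threshold. With the transcript GC trend removed 17 members changed sign, 10 of them called neither as counted nor then, and with the coding GC trend removed 26 changed sign, 20 of them without a call. Values are given by setting for the genes shown in every library, the other called members, Zfand5, Usp14, Ngly1 and Sem1, where the sign changed and the gene was called as counted or in that setting. With the transcript GC trend removed, they were Psma3 0.54, Psma1 0.022, Psmc6 0.36, Psmd10 0.94, Psmd5 0.72, Zfand5 0.69, Usp14 1.06, Ngly1 0.056, Psmd3 −0.12 and Sem1 1.84. With GC content and length removed, they were Psma3 0.46, Psmc6 0.22, Psmd10 0.82, Psmd5 0.76, Zfand5 0.79, Usp14 1.14, Psmd3 −0.11 and Sem1 1.63. With the GC trend removed and a replicate block, they were Psma3 0.67, Psma1 0.084, Psmc6 0.40, Psmd10 1.02, Psmd5 0.73, Zfand5 0.73, Usp14 1.06, Ngly1 0.057, Psmd3 −0.11 and Sem1 1.96. With the GC trend removed and control replicate 2 left out, they were Psma3 1.08, Psma1 0.37, Psma4 0.13, Psmb7 0.15, Psmb5 −0.22, Psmc6 0.63, Psmc2 0.17, Psmd10 1.35, Psmd5 0.67, Psmg2 0.42, Zfand5 0.99, Usp14 1.10, Ngly1 0.021, Nfe2l1 −0.14, Psmd3 −0.17, Psmd12 0.23 and Sem1 2.36. With GC content and length removed and control replicate 2 left out, they were Psma3 0.93, Psma1 0.12, Psmc6 0.40, Psmc3 −0.12, Psmd10 1.04, Psmd5 0.77, Psmg2 0.27, Zfand5 1.21, Usp14 1.23, Nfe2l1 −0.16, Psmd3 −0.19, Psmd12 0.11 and Sem1 1.97. With the coding GC trend removed, they were Psma3 0.67, Psma1 0.23, Psma4 0.13, Psmd6 0.0028, Psmd5 0.47, Psme4 0.012, Zfand5 0.068 and Usp14 1.32. With the coding GC trend removed and control replicate 2 left out, they were Psma3 1.21, Psma1 0.60, Psma4 0.70, Psmb7 0.52, Psmc6 0.0049, Psmc2 0.36, Psmc1 0.37, Psmd14 0.027, Psmd6 0.12, Psmd10 0.71, Psmd5 0.41, Psmg2 0.84, Uchl5 0.37, Zfand5 0.34, Usp14 1.38, Psmd11 0.16 and Psmd12 0.25. The cause of these reversals was not tested, beyond the offset by which they were made. Every member had at least 71 counts in each library, and the spread of the controls was above that of the knockdown for 45 of the 46. Whether depth limited the calls was not tested.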
